A study of Mus musculus with 6 samples.

Results

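Podocytes are the epithelial cells that wrap the capillaries of the glomerulus, the filter of the kidney. Their interlocking foot processes are bridged by the slit diaphragm, a sheet of adhesion proteins built around nephrin, and an actin cytoskeleton inside each process holds the shape of the filter. Loss of many of these proteins lets plasma protein pass into the urine, and the transcription factor Wt1 keeps the podocyte program on. Genes of this program, namely Nphs1, Cd2ap, Magi2, Podxl, Ptpro, Synpo, Plce1 and Wt1, were followed in whole kidney RNA by taking every non-control probe that the array files name for them. All 8 genes had a probe, 26 in all, out of 56097 probes for 37028 genes that were tested.

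The study asked what loss of Selenbp1, a selenium-binding protein that dioxin induces, does to the kidney in the absence of dioxin. Left kidneys from 3 male WT mice were compared with those from 3 male Selenbp1-KO mice, all labelled as C57BL/6J, 8 weeks old and fasted for 20 h. The methods obtained the C57BL/6J animals from a supplier, refer to earlier work for how the knockout was made and do not state whether the animals were littermates. Each kidney went on 1 single-color Agilent array, and the methods speak of 3 mice of each genotype. The WT replicates are numbered 2, 3 and 4 and the Selenbp1-KO replicates 1, 2 and 3, as in the labels, and arrays are listed in that order throughout.

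Signal is given as log2 of the processed intensity minus the log2 of the 75th percentile of the same array, so 0 is a bright probe and each unit is a doubling. The 75th percentile ranged from 477 to 751 intensity units, and 51.8% to 55.5% of probes were well above background on an array. All arrays lay on 1 slide with 1 scan time, but WT 2 and WT 3 lay on one side of it and WT 4 and the 3 Selenbp1-KO arrays on the other. The Selenbp1 probe stood at 7.07, 7.02 and 7.02 in WT kidneys, and the knockout kidneys were at 4.13, 3.98 and 4.10, or −2.96 on the log2 scale (SE 0.0976; limma, adjusted p = 0.0021), in the direction of the labels. Signals of different probes depend on their sequences, so each probe is compared between genotypes and the levels of different probes are not ranked as amounts of RNA.

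Several of these genes were read by more than 1 probe well above background, and 3 sets of probes matter for the results below. Coordinates are those of the array files, on mouse build mm9, and positions in a transcript are counted from its first base. The probe shown whole is the Nphs1 probe that begins at base 3512 of transcript NM_019459. Its 60 bases are spread over 220 bases of the plus strand, chr7:31266833-31267052, so it lies across an intron. For the others the first 30 of 60 bases are shown, and each of these probes covers an unbroken stretch of the genome. They are given because the probes of Nphs1 gave genotype differences of opposite sign, those of Plce1 of unlike size, and those of Cd2ap of like size. No letter is in capitals because no motif was searched.
Nphs1, base 3512: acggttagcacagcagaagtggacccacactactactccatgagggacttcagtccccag
Nphs1, base 5601, chr7:31273569-31273628: tgccacatatacacgcccacacgcctgaca
Plce1, base 7719 of NM_019588, chr19:38857801-38857860: tccaaaagctcccgttcatacgtccacaga
Plce1, base 7019 of NM_019588, chr19:38857101-38857160: aactggaaatggatgatttctcaactgcaa
Cd2ap, base 4915 of NM_009847, chr17:42930324-42930383, minus strand: cccggtcttaacagaggactccttacactc
Cd2ap, base 2074, chr17:42933165-42933224, minus strand: aagacagcagaaatggtggtgtgatgaaga
Cd2ap, base 937, chr17:42962800-42962859, minus strand: tatttccctatacaggaaccaatgaagatg

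Of the 8 podocyte genes, 1 passed the threshold between WT and Selenbp1-KO kidneys, Synpo, which encodes the actin-binding protein synaptopodin. Each gene was represented by its brightest probe, the one with the highest mean over the 6 arrays. By that probe, Selenbp1-KO kidneys had 3 of the genes higher and 5 lower, with differences from −0.19 (Cd2ap) to 0.29 (Synpo) on the log2 scale. Their median was −0.03, against 0.13 over all genes tested and 0.02 over the 19263 genes well above background on every array of a genotype. At the threshold of the methods, an unadjusted limma p under 0.05, 1 of the 8 genes was called, where 8.00% of all genes and 5.79% of the well measured genes were called. No gene of the 8 reached an adjusted p under 0.05, a level that 0.00540% of all genes reached, and the lowest adjusted p among them was 0.279. The 95% confidence interval of the difference covered 0 for the other 7 genes. The groups did not overlap for 2 of the 8 genes, Synpo and Cd2ap, while 14.1% of all genes and 19.0% of well measured genes had groups that did not overlap. In whole kidney RNA, a change in the number of podocytes and a change in RNA per podocyte cannot be told apart.

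**Figure D1:**
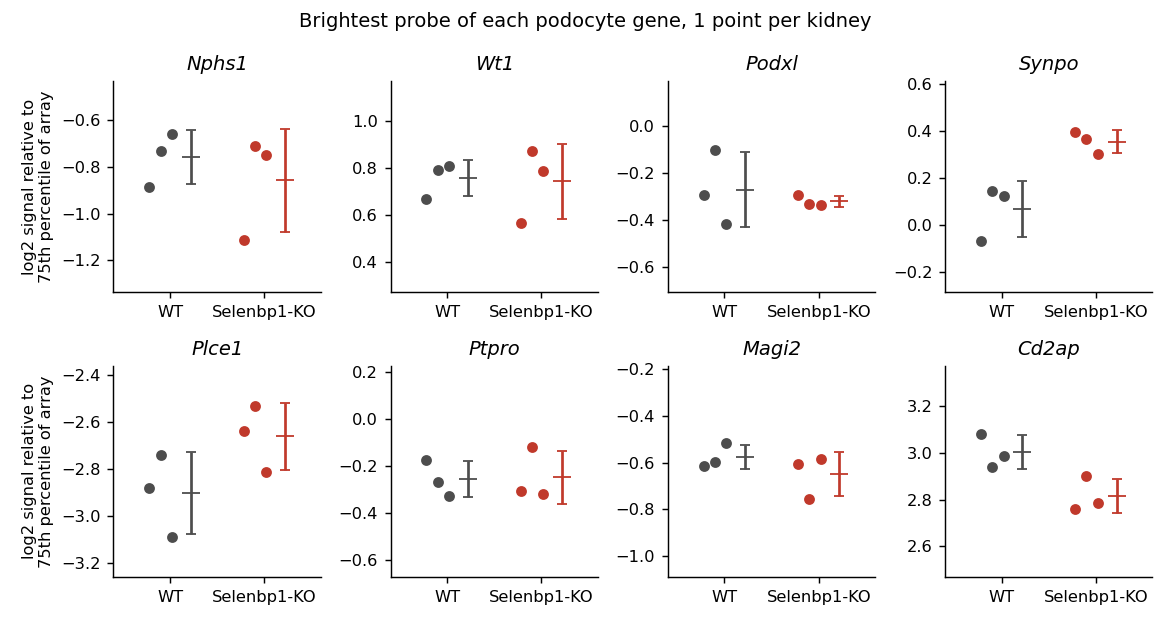
Log2 signal of the brightest probe of each of the 8 podocyte genes, relative to the 75th percentile of the array, in WT (grey) and Selenbp1-KO (red) kidneys, with 1 point per kidney and the mean ± SD of 3 kidneys beside the points. Every panel spans the same log2 range. The groups overlap for all genes except Synpo, where all 3 Selenbp1-KO kidneys lie above the WT kidneys, and Cd2ap, where all 3 lie below.

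Nphs1 encodes nephrin, the transmembrane adhesion protein that spans the slit between neighbouring foot processes. Its brightest probe, at base 5601, stood at −0.88, −0.73 and −0.66 in WT kidneys and at −1.11, −0.71 and −0.75 in Selenbp1-KO kidneys. Selenbp1-KO 1 was the lowest kidney and the other 2 lay within the WT range. The difference was −0.10 (SE 0.147, 95% confidence interval −0.46 to 0.26), with an adjusted limma p of 0.772. The probe across the intron, at base 3512, stood at −1.59, −1.42 and −1.49 in WT and at −1.40, −1.12 and −1.46 in Selenbp1-KO kidneys. Here Selenbp1-KO 2 was the highest kidney and the difference was 0.17 (SE 0.129, 95% confidence interval −0.14 to 0.49). The probes thus had opposite signs, and the first minus the second was 0.74 ± 0.0803 in WT kidneys against 0.47 ± 0.216 in the knockout kidneys (SD, n = 3 each). That change of −0.27 gave an exact permutation p of 0.2 (two-sided), where 3 against 3 arrays cannot go below 0.1.

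Cd2ap encodes an adaptor that ties nephrin to the actin cytoskeleton, and it is also made in many other kidney cells. Its brightest probe, at base 4915, stood at 3.08, 2.94 and 2.99 in WT kidneys and at 2.76, 2.90 and 2.79 in Selenbp1-KO kidneys. All Selenbp1-KO kidneys lay below all WT kidneys, though Selenbp1-KO 2 came close to WT 3. The difference was −0.19 (SE 0.102, 95% confidence interval −0.43 to 0.06), with an adjusted limma p of 0.346. The probe at base 2074 stood at 0.27, 0.07 and 0.14 in WT and at 0.07, −0.06 and −0.12 in Selenbp1-KO kidneys, and thus differed by −0.19 (SE 0.111). The probe at base 937 stood at −1.58, −1.95 and −1.29 in WT and at −1.79, −2.06 and −1.67 in Selenbp1-KO kidneys, and thus differed by −0.24 (SE 0.203). The groups overlapped for both of these probes. All 3 Cd2ap probes were therefore lower on average in Selenbp1-KO kidneys and none passed the threshold. The brightest probe minus the mean of the other 2 changed by 0.03 between genotypes (exact permutation p = 0.8). The brightest probe was lower under all 19 alternative processings and had an unadjusted p under 0.05 in 4 of them.

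Magi2 encodes a scaffold protein of cell junctions that binds nephrin. Its one probe well above background, on chr5:20208674-20208733 in NM_001170746, stood at −0.61, −0.60 and −0.52 in WT kidneys and at −0.60, −0.76 and −0.59 in Selenbp1-KO kidneys. The groups overlapped and Selenbp1-KO 2 was the lowest kidney. The difference was −0.07 (SE 0.102, 95% confidence interval −0.32 to 0.18), with an adjusted limma p of 0.757.

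Podxl and Ptpro encode glycoproteins of the podocyte surface. Podocalyxin, the product of Podxl, carries much of the negative charge that keeps the slits open, and endothelium makes it too. The Podxl probe, on the minus strand at chr6:31470405-31470464 in NM_013723, stood at −0.29, −0.10 and −0.41 in WT kidneys and at −0.29, −0.33 and −0.34 in Selenbp1-KO kidneys. The 3 Selenbp1-KO kidneys lay close together, inside the range of the WT kidneys. The difference was −0.05 (SE 0.117, 95% confidence interval −0.34 to 0.24), with an adjusted limma p of 0.866. Ptpro encodes a receptor tyrosine phosphatase of the apical membrane. Its probe, at chr6:137411402-137411461 in NM_011216, stood at −0.17, −0.27 and −0.32 in WT kidneys and at −0.30, −0.12 and −0.32 in Selenbp1-KO kidneys. The groups spanned nearly the same range. The difference was 0.01 (SE 0.110, 95% confidence interval −0.26 to 0.28), with an adjusted limma p of 0.984.

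Synpo encodes synaptopodin, which binds actin and α-actinin in the foot processes. Its brightest probe, in transcript NM_177340, lies on the minus strand at chr18:60753644-60753691, a span of 48 bases. This probe stood at −0.07, 0.15 and 0.12 in WT kidneys and at 0.40, 0.37 and 0.30 in Selenbp1-KO kidneys. Every Selenbp1-KO kidney lay above every WT kidney, and WT 2 was the lowest. The mean was 0.07 ± 0.118 for WT and 0.36 ± 0.0475 for Selenbp1-KO kidneys (SD, n = 3 each). Synpo rose by 0.29 on the log2 scale (SE 0.108, 95% confidence interval 0.03 to 0.55), with an unadjusted limma p of 0.0363 and an adjusted p of 0.279. Under 19 alternative processings it was higher in all 19, from 0.06 to 0.33, and had an unadjusted p under 0.05 in 11.

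The other 3 Synpo probes had differences near 0. Those of NM_001109975 differed by −0.06 (95% confidence interval −0.31 to 0.19) and by 0.03 (95% confidence interval −0.24 to 0.30), and that of ENSMUST00000137894 by −0.03 (95% confidence interval −0.64 to 0.59). All 3 were well above background on the 6 arrays, and their groups overlapped. The brightest probe minus the mean of the others was 2.12, 2.36 and 2.17 in WT and 2.70, 2.38 and 2.49 in Selenbp1-KO kidneys. These values did not overlap, but WT 3 and Selenbp1-KO 2 were nearly equal. The change of 0.31 gave an exact permutation p of 0.1, the smallest p that 3 against 3 arrays allow. After Benjamini–Hochberg adjustment over 6 comparisons it was 0.2. Besides contrasts between probes of a gene, the 6 included Synpo minus the mean of the other 7 members. That contrast is of another kind, and it changed by 0.31 (exact permutation p = 0.1). It was taken only for Synpo, the gene called on these same arrays, so its p adds no support to the call. The call on Synpo was lost in 8 of the alternatives. With the side of the slide as a block, where only the side that holds WT 4 and the 3 Selenbp1-KO arrays gives a difference, it was 0.23, with an unadjusted limma p of 0.163. Without WT 2 it was 0.22, and the mean over all 4 Synpo probes differed by 0.06.

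**Figure D2:**
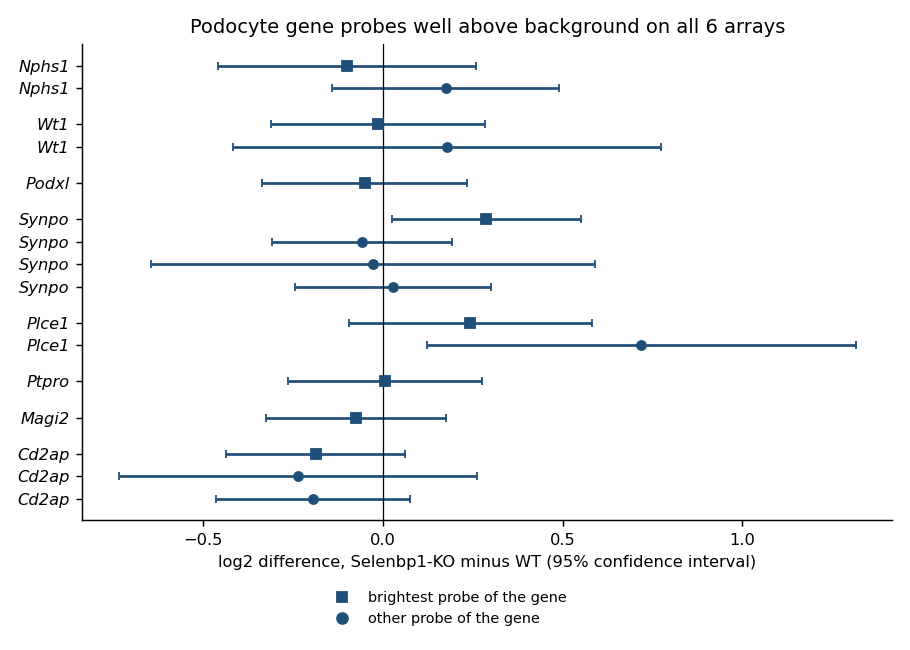
Log2 difference (Selenbp1-KO minus WT, x axis) with its 95% confidence interval from limma for the 16 podocyte gene probes that were well above background on all 6 arrays, grouped by gene, with a square for the brightest probe of each gene and circles for its other probes. The intervals of the brightest Synpo probe and of the second Plce1 probe lie to the right of 0, and the other 14 cover it.

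Plce1 encodes phospholipase C epsilon, a signalling enzyme whose loss in humans causes a childhood nephrotic syndrome. Its brightest probe, at base 7719, stood at −2.88, −2.74 and −3.09 in WT kidneys and at −2.64, −2.53 and −2.81 in Selenbp1-KO kidneys. The groups overlapped, with Selenbp1-KO 3 inside the WT range. The difference was 0.24 (SE 0.138, 95% confidence interval −0.09 to 0.58), with an adjusted limma p of 0.369. The probe at base 7019 of the same transcript stood at −3.59, −3.67 and −4.12 in WT kidneys and at −2.67, −3.12 and −3.44 in Selenbp1-KO kidneys. All Selenbp1-KO kidneys lay above all WT kidneys, and each group spread over more than it did on the first probe. This probe rose by 0.72 (SE 0.244, 95% confidence interval 0.12 to 1.31), with an unadjusted limma p of 0.0253 and an adjusted p of 0.279.

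The brightest Plce1 probe minus the other was 0.71, 0.93 and 1.04 in WT and 0.03, 0.59 and 0.63 in Selenbp1-KO kidneys. The groups did not overlap, and Selenbp1-KO 1 stood furthest from WT. The change of −0.48 gave an exact permutation p of 0.1 (0.2 adjusted over the 6 comparisons). The larger difference at base 7019 rested in part on single arrays, since it was 0.55 without WT 4 and 0.52 without Selenbp1-KO 1, both with an unadjusted limma p above 0.05. With the side of the slide as a block the probe at base 7019 differed by 1.05 and the brightest probe by 0.43, with unadjusted limma p values of 0.0199 and 0.0461. Without WT 4 the brightest probe differed by 0.15. The probe at base 7019 was higher in 18 of 18 alternative processings, from 0.35 to 1.05, and had an unadjusted p under 0.05 in 11 of them.

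Wt1 encodes the zinc finger transcription factor that activates Nphs1 and Podxl in podocytes, and in the adult kidney it is also made in the mesothelium of the capsule. Its brightest probe, on chr2:105013656-105013715 in NM_144783, stood at 0.67, 0.79 and 0.81 in WT kidneys and at 0.57, 0.88 and 0.79 in Selenbp1-KO kidneys. The Selenbp1-KO kidneys held both the lowest and the highest value. The difference was −0.01 (SE 0.122, 95% confidence interval −0.31 to 0.28), with an adjusted limma p of 0.969. A second Wt1 probe, in ENSMUST00000145107 at chr2:104974028-104974087, differed by 0.18 (SE 0.244, 95% confidence interval −0.42 to 0.77).

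Of the 26 podocyte gene probes, 16 were well above background on all 6 arrays and 10 on none. An unadjusted limma p under 0.05 was found for 4 of the 26, where 7.98% of all probes did, and 5 had groups that did not overlap, where 13.3% of all probes did. Of the 16 measured probes, 7 had the higher mean in Selenbp1-KO and 9 in WT kidneys, and their median difference was −0.02. The 10 dim probes, 5 of Magi2, 3 of Plce1 and 1 each of Podxl and Ptpro, give no fold. In Selenbp1-KO kidneys 9 of the 10 were higher, as were 86.5% of all 24333 tested probes that were well above background on no array. The Magi2 and Podxl probes among the 4 with a p under 0.05 were of this dim kind, so the calls on measured signal were those on Synpo and on the Plce1 probe at base 7019. Of all probes called, 3632 were higher and 847 lower in Selenbp1-KO kidneys, and the median difference of all probes was 0.11. With quantile normalization that median was 0.00 and the split became 2570 higher and 2116 lower, and Synpo differed by 0.29 as before. With the side of the slide as a block the split turned round, to 1361 higher and 2290 lower.

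**Figure D3:**
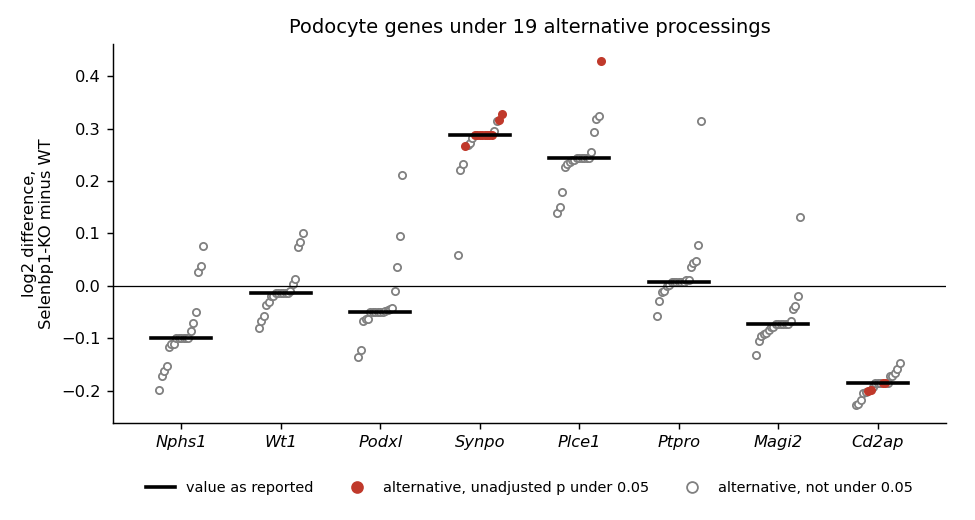
Log2 difference of each podocyte gene (Selenbp1-KO minus WT, y axis) as reported (black line) and under 19 alternative processings (points, red where the unadjusted p was under 0.05). Synpo and Plce1 lie above 0 and Cd2ap below 0 under all 19, while the points of Nphs1, Wt1, Podxl, Ptpro and Magi2 fall on both sides of 0.

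Podocytes depend on many further genes, and 52 of them in 5 lists were looked up for the same comparison. None of the 52 had an unadjusted limma p under 0.05, though 2 did by the methods' t-test, Cd151 and Dag1. Of the 50 well above background on at least 1 array, 29 were higher and 21 lower in Selenbp1-KO kidneys, and the median difference over the 50 was 0.01. Groups did not overlap for 5 of the 52, where 14.1% of all genes and 19.0% of well measured genes had such groups. The 3 largest differences, picked out after the values were seen, were those of Fyn, Sulf1 and Tcf21, all higher in Selenbp1-KO kidneys. Fyn, the kinase that phosphorylates nephrin, differed by 0.45 (SE 0.205), and Sulf1, a heparan sulfate sulfatase, by 0.40 (SE 0.175). Tcf21, a transcription factor of developing podocytes, differed by 0.38 (SE 0.179). For Fyn and Tcf21, WT 2 and WT 3 lay below the Selenbp1-KO kidneys. WT 4, on the slide side of the Selenbp1-KO arrays, lay within their range, at −3.74 for Fyn and −0.54 for Tcf21. For Sulf1 it lay below their range, at −2.56. The slit diaphragm list had a median difference of 0.02 over 12 measured genes. Among its brighter members, Nck2, an adaptor that links phosphorylated nephrin to actin, differed by 0.07 (SE 0.109). The nephrin relative Kirrel3 differed by 0.12, with groups that did not overlap.

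The foot process cytoskeleton list had a median of −0.01 over 11 measured genes. Its brightest members were Arhgdia, a regulator of the actin cytoskeleton, at −0.02 (SE 0.0930), and Ezr, which encodes ezrin, the link from podocalyxin to actin, at −0.10 (SE 0.106). The 6 transcription factors had a median of 0.02, with Dach1 at −0.07 (SE 0.108) and Foxc1 at −0.11 (SE 0.121) as the brightest. The 12 genes of the basement membrane and of adhesion to it had a median of 0.00. Groups did not overlap for 3 of these, the tetraspanin gene Cd151 at 0.16 (SE 0.101), the integrin gene Itgb1 at −0.04 (SE 0.0908) and the dystroglycan gene Dag1 at −0.15 (SE 0.0945). Such groups were found for 19.0% of all well measured genes. The 9 genes of secreted factors, receptors and other podocyte products had a median of 0.02, with 8 higher and 1 lower. Their brightest were Bmp7, a growth factor, at 0.02 (SE 0.0980), and Cdkn1c, a cell cycle inhibitor of mature podocytes, at 0.11 (SE 0.108) with groups that did not overlap. Kirrel2 and Plekhh2 were not well above background on any array, and Trpc6, a calcium channel of the slit diaphragm, was so on 1 Selenbp1-KO array only. Many of the genes in these lists are also made in tubules, vessels or other cells of the kidney.

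**Figure D4:**
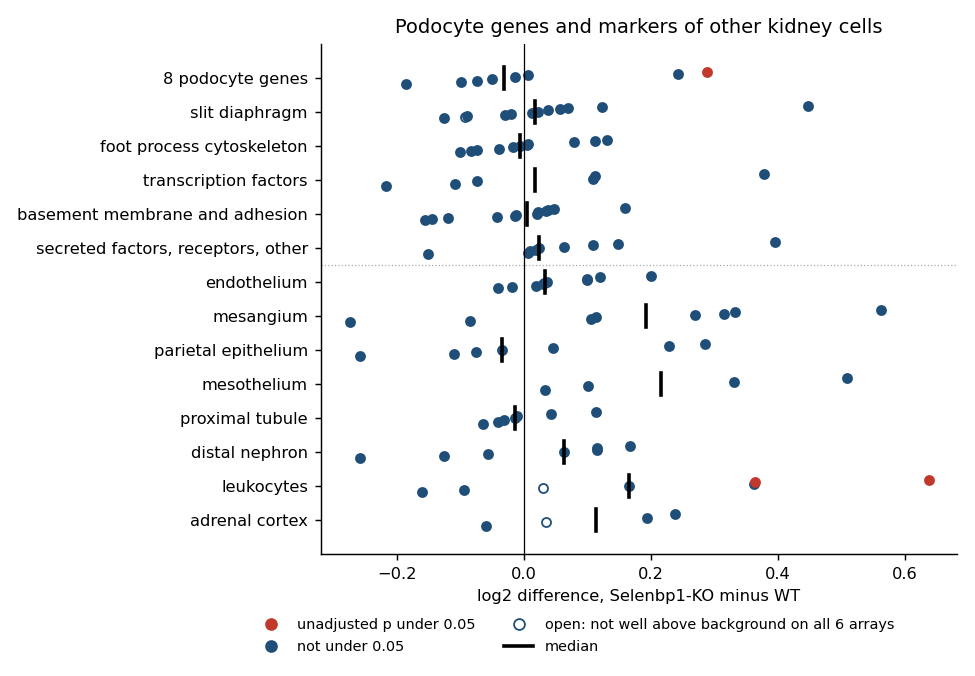
Log2 difference (Selenbp1-KO minus WT, x axis) of the 8 podocyte genes, of 5 lists of further podocyte genes (above the dotted line) and of 8 marker lists of other kidney cells (below it), with 1 point per gene that was well above background on at least 1 array, red where the unadjusted limma p was under 0.05, and a black bar at the list's median. Medians of the podocyte lists lie between −0.03 and 0.02, and those of mesangium, mesothelium, leukocytes and adrenal cortex between 0.11 and 0.22.

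Markers of the other cells of the glomerulus and of the rest of the kidney were read on the same arrays. Levels were summed over a list on the linear scale, so bright probes weigh most in a sum. The 8 podocyte genes summed to 13.683 to 14.035 times the 75th percentile in WT and to 12.480 to 13.678 in Selenbp1-KO kidneys, which by a narrow margin did not overlap. Cd2ap alone gave 56.0% to 60.2% of that sum in WT and 53.7% to 54.5% in Selenbp1-KO kidneys. Without it the other 7 genes summed to 5.58 to 6.02 and to 5.71 to 6.22, and the genotypes overlapped. The 10 endothelial markers had a median difference of 0.03 with none called, and summed to 39.2 to 47.0 in WT and 43.0 to 49.2 in Selenbp1-KO kidneys. The 7 markers of parietal epithelium had a median of −0.03 with none called, and summed to 49.8 to 55.1 and to 45.6 to 62.1. Groups did not overlap for 1 of them, Ncam1 at 0.29 (SE 0.120), where 19.0% of well measured genes had such groups. The 8 mesangial markers had a median of 0.19 with none called. Groups did not overlap for 2, Des at 0.31 and Thy1 at 0.56, where 19.0% of well measured genes had such groups. The 8 mesangial markers summed to 13.8 to 16.1 in WT and to 13.2 to 16.1 in Selenbp1-KO kidneys. Endothelium, parietal epithelium and mesangium thus had summed levels that overlapped between genotypes.

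Of the 7 leukocyte markers, 2 were called, where 8.00% of all genes and 5.79% of well measured genes were. Both were higher in Selenbp1-KO kidneys, the T cell receptor subunit gene Cd3e by 0.64 (SE 0.230) and the macrophage gene Cd68 by 0.36 (SE 0.107). The adjusted limma p was 0.279 for each. Cd3e stood at −2.15, −1.99 and −1.31 in WT kidneys and at −1.22, −1.11 and −1.21 in Selenbp1-KO kidneys. WT 4, on the slide side of the Selenbp1-KO arrays, thus lay closer to them than WT 2 and WT 3 did. For Cd68, WT 4 was the lowest kidney, at −1.65. The list's median was 0.17, and it summed to 12.1 to 15.9 in WT and 14.1 to 16.6 in Selenbp1-KO kidneys. The 5 mesothelial markers were all higher, with a median of 0.22 over the 4 that were measured, and summed to 7.06 to 7.69 in WT and 7.15 to 9.86 in Selenbp1-KO kidneys. The only one of them called, Lrrn4, was not well above background on any array. Proximal tubule (7 genes, median −0.01) and distal nephron (7 genes, median 0.06) had none called. The 6 genes of the adrenal cortex, a tissue that borders the kidney, had none called either, and summed to 0.577 to 0.697 and to 0.654 to 0.730, with Cyp11a1 and Cyp11b1 not well above background on any array. The medians of the leukocyte, mesothelial and mesangial lists were thus above 0, as the differences of Synpo and Plce1 were, although few of their genes were called. By array, the mesangial genes' median deviation from their own means was −0.20 in WT 2, −0.15 in WT 3 and 0.10 in WT 4. The Selenbp1-KO kidneys ran from 0.03 to 0.17. For the leukocyte list the values were −0.02, −0.35 and 0.14, against 0.04 to 0.26. WT 4 thus lay within the Selenbp1-KO range for both lists. For the mesothelial list it lay below that range, at −0.10 against −0.05 to 0.36. Whether the side of the slide shaped these medians was not tested. Ptprc (−0.16), Itgam (−0.10), Gata3 (−0.27) and Cspg4 (−0.08), named after their values were seen, had the lower mean in Selenbp1-KO kidneys. The part of these cells in the differences of Synpo and Plce1 was not tested.

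The median deviation of the 8 podocyte genes from each gene's own mean was −0.04, 0.03 and −0.01 in WT and −0.03, 0.11 and −0.00 in Selenbp1-KO kidneys. The WT and Selenbp1-KO kidneys overlapped, and Selenbp1-KO 2 was the highest. In that kidney the 52 further podocyte genes were at 0.06, the endothelial markers at 0.15, the mesangial markers at 0.17 and the leukocyte markers at 0.26. All of these groups were highest in Selenbp1-KO 2.

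**Figure D5:**
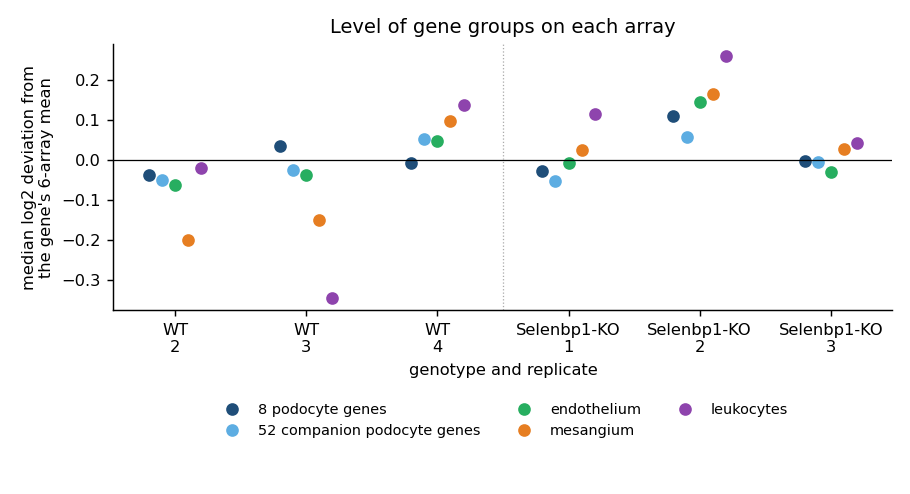
Median log2 deviation of gene groups from each gene's mean over the 6 arrays (y axis) on every array (x axis, WT left and Selenbp1-KO right of the dotted line), for the 8 podocyte genes, 52 further podocyte genes, and markers of endothelium, mesangium and leukocytes. The podocyte genes stay between −0.04 and 0.11, while the leukocyte markers range from −0.35 in WT 3 to 0.26 in Selenbp1-KO 2.

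To describe how the 8 genes varied together, each gene's values were centred on its 6-array mean, and the mean of the 8 profiles was taken. The root mean square distance of a gene from this mean profile ran from 0.07 (Ptpro) and 0.07 (Wt1) to 0.15 (Synpo) and 0.16 (Plce1) on the log2 scale. The median over 18356 other genes ranked by the same distance was 0.13, and Nphs1 was at 0.13 too. Each of the 8 genes is part of the mean profile, which lowers its own distance, and the other genes are not. The distances of the 8 can therefore not be set against that median. The nearest were Carmil3, Anapc2, Lxn, Epc2 and Atic, at distances from 0.01 to 0.02. The nearest of the 52 further podocyte genes were Ilk, at place 38, and Kirrel, at place 52. Over 6 arrays such closeness is a description of these kidneys.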

How the data were processed

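Kidney RNA of 3 WT and 3 Selenbp1-KO mice was hybridised to single-color Agilent arrays (Cy3). The authors deposited the scanner output of each array, from Feature Extraction 10.7.1.1 per the file headers (9.5.1.1 per the submitters' processing notes). The deposited intensity of a spot is linear and background-subtracted but not scaled between arrays. The p-value of each spot against its background was computed by the scanner software before the authors deposited it. They also deposited a table of linear intensities whose 6 columns share the same quartiles and keep the rank order of the scanner values, so it is quantile normalized. The labels name TRIzol and a Promega kit for the RNA, the methods an RNeasy kit, and the design text names another array design than the file headers do, so both are uncertain.

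Each intensity was divided by the 75th percentile of its array, taken over the spots that are not controls, and put on the log2 scale. Outlier spots were dropped and repeated spots averaged per probe. The filter of the methods was kept, a detection p under 0.05 on 1 array or more of the 6, and limma 3.58.1 (lmFit, eBayes, two-sided) in R 4.3.3 compared the genotypes, with Benjamini–Hochberg adjustment over all 56097 probes. Probes were called as the methods did, by p under 0.05 before adjustment. Scripts were tested on simulated data. Gene names come from RefSeq accessions in the files (GRCm38.p6 names, 32994 probes matched), otherwise from the files, and member names are those of the files. No annotation of build mm9 was used here, so exons and untranslated regions are not given. Exact permutation tests used scipy 1.17.1. The members and all gene lists were chosen with earlier results of these data known, so no list was tested as a set. Named are the 8 members with all their probes, the 2 brightest genes of each companion list (1 of them is not reported here), genes called or with groups that did not overlap (the latter chosen after their values were seen), and the 5 genes nearest to the members' profile. Muc16 and the older name Emr1 matched no probe. The number of arrays limits the precision.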

Additional observations from a re-analysis of the deposited data

How the results depend on the processing

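The 8 podocyte genes were recomputed under 19 alternatives each. Of the 152 values, 123 kept their direction and side of the threshold, 8 lost a call, 5 gained one and 16 changed sign, and the causes were not tested. All probes called (4479) numbered 14616 with scaling by the median, 7536 with the trend and robust options of limma, 2841 with only probes well above background, and 2024 (without WT 2) to 17585 (without WT 4) when an array was left out. Podocyte genes called (1) numbered 2 with quantile normalization, the authors' values, the trend option or the t-test, 0 with scaling by the median or the mean of all probes, and 0 to 1 with an array left out. Synpo lost its call with scaling by the median (0.27) and without Selenbp1-KO 1 (0.27), 2 (0.28) or 3 (0.31). The median of the 8 (−0.03) was 0.11 with the mean of all probes, and −0.0601 to 0.0310 with an array left out. The mean of all probes takes in the 10 dim probes, which give no fold. Among these are 5 of the 6 Magi2 probes and the second probe of Podxl and of Ptpro. Of the 52 further podocyte genes (0 called), 3 were called with normexp (Fyn, Tcf21 and Sulf1, higher), with quantile normalization or the authors' values (Arhgdia, Ezr and Dag1, lower) and with the trend option (Tcf21, Sulf1 and Cd151, higher), 2 with the t-test, 1 with scaling by the median, with only probes well above background or with the mean of all probes, and 0 to 2 with an array left out. Ptpro (0.01) turned to −0.0112 with normexp and −0.00985 with scaling by the median, and ran from −0.0582 (without Selenbp1-KO 2), also below 0 without WT 4, to 0.0476 with an array left out. Podxl (−0.05) turned to 0.21 with the mean of all probes and 0.0946 when blocked on slide side, and ran from −0.122 to 0.0349 (without WT 3). Nphs1 (−0.10) turned to 0.0375 with the mean of all probes, and ran from −0.172 to 0.0266 (without Selenbp1-KO 1). Wt1 (−0.01) turned to 0.0827 with the mean of all probes, and ran from −0.0797 to 0.0742 (without Selenbp1-KO 1), also above 0 without WT 3 or WT 4. Magi2 (−0.07) turned to 0.13 with the mean of all probes.

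Only the numbers 2 and 3 occur in both genotypes and the labels do not say that they pair animals. The deviations of equal numbers correlated at 0.171 and 0.187, those of unequal numbers at −0.326 to 0.186. With the replicate number as a block, which leaves WT 4 and Selenbp1-KO 1 without weight in the difference, 18430 probes, 0 of the 8 podocyte genes and 2 of the 52 further genes were called, the median of the 8 was 0.0385, Nphs1 turned to 0.0767 and Wt1 to 0.101, and Synpo was 0.30. In the same blocked fit the Plce1 probe at base 7019 differed by 0.35, without its call, and the brightest Plce1 probe by 0.14. Signal over background limits the 10 dim probes.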
